A study of Homo sapiens with 8 samples.

Results

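The mucin genes of pancreatic ductal epithelium were examined in Panc10.05 cells, a long-established line from a human pancreatic adenocarcinoma. The set comprised 9 genes taken by symbol (MUC1, MUC4, MUC5AC, MUC5B, MUC6, MUC13, MUC16, MUC17 and MUC20) of the 60675 gene identifiers in the count files. Of the 9, 5 had enough reads to be tested (MUC1, MUC4, MUC13, MUC16 and MUC20), beside 16661 tested genes in all. RNA was sequenced from parental cells and from a derivative with acquired resistance to indisulam, a molecular glue that leads to degradation of the splicing factor RBM39. There were 4 groups of 2 libraries. Parental cells were untreated or received 2 µM indisulam for 18 h. Resistant cells were kept on 2 µM indisulam without a break, or were taken off it for 1 wk and are called resistant untreated, so all resistant cells had met the drug before. The resistant cells came from culture in rising drug doses, and 1 such line was sequenced. The libraries within a group are described as technical replicates, so p-values measure the spread between libraries. Some protocol notes speak of A549 cells, but every sample title gives Panc10.05, which was followed here.

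Mucins are large glycoproteins whose repeated serine-, threonine- and proline-rich stretches carry dense O-linked sugar chains. MUC5AC, MUC5B and MUC6 are secreted and form the mucus gel, whereas MUC1, MUC4, MUC13, MUC16, MUC17 and MUC20 are anchored in the apical membrane, where several of them act beside receptor tyrosine kinases. Ductal precancer and cancer of the pancreas often gain MUC4, MUC5AC and MUC16.

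The repeats of mucin genes bear on how reads are counted, so the units found in the annotated exons of MUC4 and MUC20, each with over 100 reads in every library, are given in the sense of the transcript from GRCh38 (GENCODE release 44 exons). Each is the most frequent exact unit of its longest repeat exon.
MUC4 repeat (chr3:195788035-195788082, minus strand): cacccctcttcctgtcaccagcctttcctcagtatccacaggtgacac
MUC20 repeat (chr3:195725148-195725204, plus strand): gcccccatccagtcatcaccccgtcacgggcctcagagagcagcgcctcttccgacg
The MUC4 unit of 48 bases occurred in 189 copies at 80% identity or better, which made up 71.4% of an exon of 12708 bases. The MUC20 unit of 57 bases occurred in 11 such copies, 26.7% of its exon of 2346 bases. Of all stretches of 50 bases in the exons, 24.6% in MUC4 and 8.53% in MUC20 occurred more than once within the gene, against 0% in MUC1 and MUC13 and 0.783% in MUC16. MUC1 is known for a tandem repeat of its own, which the annotated exons used here did not show. Reads of low mapping quality were not assigned to genes and made up 7.55 to 8.25% of all counted lines per library, so part of the reads from such repeats may be missing.

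The 250 bases upstream of the RefSeq start (GRCh38.p14) are shown for MUC1, MUC4 and MUC13, whose levels differed between groups in different ways. Capitals mark matches, on either strand, to the GC box (GGGCGG), the TATA box (TATAAA), the CCAAT box (CCAAT) or a STAT element (TTCNNNGAA).
MUC1 (chr1:155192916-155193165, minus strand): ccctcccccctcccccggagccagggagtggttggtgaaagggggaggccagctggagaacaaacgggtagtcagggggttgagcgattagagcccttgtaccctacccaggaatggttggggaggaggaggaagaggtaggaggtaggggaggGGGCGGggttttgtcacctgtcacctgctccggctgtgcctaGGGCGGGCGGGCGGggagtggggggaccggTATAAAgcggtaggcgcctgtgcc
MUC4 (chr3:195811930-195812179, minus strand): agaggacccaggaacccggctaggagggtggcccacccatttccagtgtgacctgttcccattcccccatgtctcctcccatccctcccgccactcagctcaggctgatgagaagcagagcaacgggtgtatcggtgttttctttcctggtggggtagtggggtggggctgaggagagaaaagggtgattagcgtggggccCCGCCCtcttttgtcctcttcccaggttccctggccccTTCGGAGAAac
MUC13 (chr3:124934752-124935001, minus strand): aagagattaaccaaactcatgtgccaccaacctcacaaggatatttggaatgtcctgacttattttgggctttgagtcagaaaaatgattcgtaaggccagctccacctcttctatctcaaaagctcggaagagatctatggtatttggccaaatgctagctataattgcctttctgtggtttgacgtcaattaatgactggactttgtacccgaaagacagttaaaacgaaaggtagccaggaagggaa
The MUC1 window held 4 GC boxes, 3 of them overlapping, and 1 TATA box. The MUC4 window held 1 GC box and 1 STAT element, and the MUC13 window held none of the 4 motifs. GC boxes were found in 42.6%, TATA boxes in 10.7%, CCAAT boxes in 32.0% and STAT elements in 6.57% of 35116 such windows over all genes. The GC content was 66.0% for MUC1, 60.4% for MUC4 and 41.6% for MUC13, with a median of 58.0% over all windows. Promoter entries were matched for 5 of the 9 genes.

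Libraries held 65266253 to 108002436 gene-assigned reads. Ductal epithelial markers were abundant. The summed level of KRT7, KRT8, KRT18, KRT19, EPCAM, CDH1 and SOX9 was 6395 to 6585 CPM in parental and 10956 to 12364 CPM in resistant libraries, where CPM is the count scaled to library size after TMM normalisation. Of 14 markers of immune, endothelial, fibroblast, islet and acinar cells, PTPRC, CD3E, DCN, LUM, INS and CPA1 had 0 reads in every library. The summed level of these 14 was 1.65 to 2.17 CPM in all groups except resistant indisulam, where it was 4.40 and 4.48 CPM, and most of that was COL1A1 (3.92 ± 0.0504 CPM, SD, n = 2).

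MUC4, the membrane mucin that binds ERBB2, supplied most mucin reads. Of the reads of the 9 genes it held 87.6% in untreated and 88.4% in treated parental cells, and 75.4% and 81.3% in resistant cells off and on the drug. Long transcripts collect more reads, and per kilobase of exon the order was different. MUC4 stood at 3.15, 3.48, 2.81 and 4.81 CPM per kilobase in these groups. MUC1, the most widely expressed membrane mucin, stood at 2.08, 1.67, 6.48 and 7.68. MUC4 was therefore ahead in parental cells and MUC1 in resistant cells on this scale, with MUC20 (0.474 to 0.712) and MUC13 (0.0575 to 0.21) below both. The order of MUC4 and MUC1 is uncertain. The exon length of MUC4 counts repeats from which reads may be missing, and that of MUC1 did not show its known repeat. The MUC1 share of the mucin reads per kilobase was 35.3% in parental untreated and 65.9% in resistant untreated cells.

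**Figure D1:**
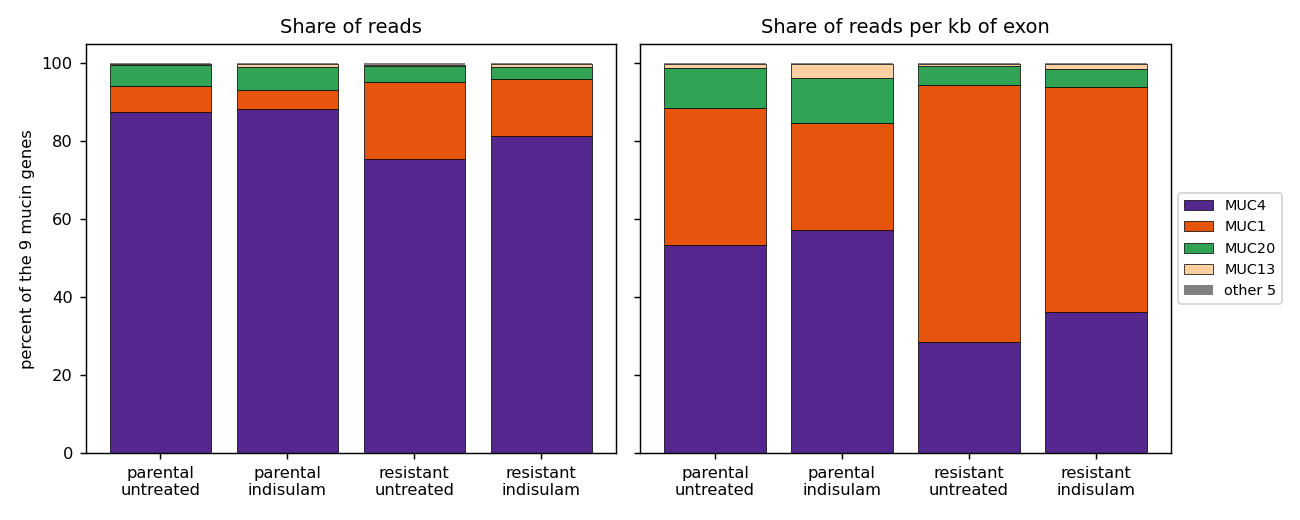
Share of each mucin gene among the 9, in percent, by group, from reads summed over 2 libraries (left) and from mean CPM per kilobase of exon (right). On the right, MUC1 takes 35.3% in parental untreated and 65.9% in resistant untreated cells.

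To ask how mucin expression responded to the drug and to acquired resistance, 4 pairs of groups were compared by the quasi-likelihood test of edgeR, with p adjusted by Benjamini-Hochberg over all tested genes here and below. The comparisons share groups in pairs and are not independent. With the drug, parental cells compare 18 h against none, and resistant cells compare unbroken culture against 1 wk off. Line and exposure therefore cannot be told apart where drug responses are compared. Because most genes moved a little, a call alone says little. In parental cells the drug changed 3 of the 5 tested mucins, 2 higher and 1 lower, while 58.2% of all tested genes were called, 31.6% higher and 26.6% lower. In resistant cells 4 were higher and 0 lower on the drug, against 50.7% of all genes called, 24.9% higher and 25.8% lower. Off the drug, 2 mucins were higher and 1 lower in resistant than in parental cells (60.1% of all genes called, 30.3% higher and 29.9% lower). On it, 3 were higher and 1 lower (69.5% of all genes called, 34.6% higher and 34.9% lower). The response to the drug differed between the lines for 1 mucin, which was higher in resistant cells (50.1% of all genes called, 22.7% higher and 27.5% lower). The median log2 fold change of the 5 mucins was 0.15, 0.36, -0.01 and 0.47 in these comparisons, against 0.0144, 0.00929, -0.0154 and 0.00322 over all tested genes. MUC16 was 1 of the mucins counted as higher in resistant cells, both off and on the drug. It passed the filter only through the resistant libraries, so its calls there are no evidence of a difference. Counts and medians over the 5 are descriptions of those that passed and not of all 9 genes.

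**Figure D2:**
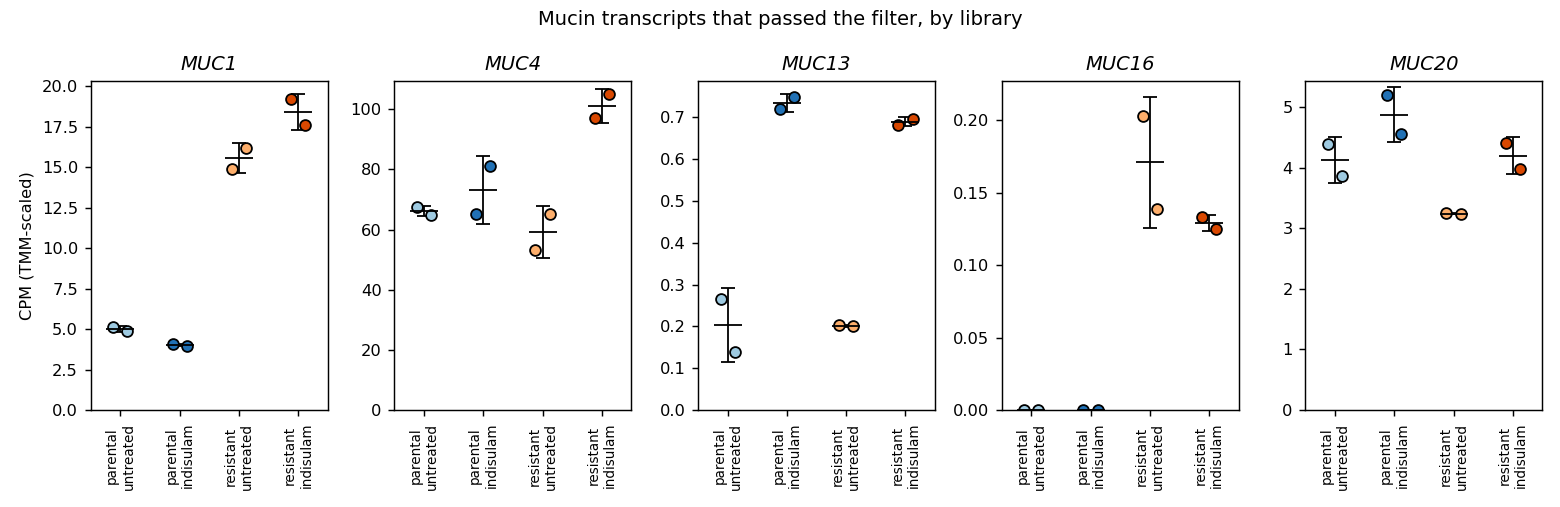
Level of the 5 tested mucin transcripts in CPM (vertical axis, each from 0) by group. Points are libraries, and the line with its bar is the mean and SD of 2 libraries. MUC1 lies between 3.95 and 5.12 CPM in parental and between 14.9 and 19.2 CPM in resistant libraries.

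MUC1 (ENSG00000185499, chromosome 1, 155185824 to 155192916, minus strand) had the clearest difference between the lines. Parental libraries held 5.12 and 4.89 CPM untreated against 4.05 and 3.95 under indisulam. Resistant libraries held 14.9 and 16.2 CPM off the drug against 19.2 and 17.6 on it. Every resistant library was above every parental library, and none of the 4 groups overlapped. Off the drug MUC1 was higher in the resistant line by 1.63 log2 units, or 3.10-fold (SE 0.0632, adjusted p 1.2e-16), and on the drug by 2.2 log2 units, or 4.59-fold (SE 0.0677, adjusted p 1.5e-18). Summed levels of the ductal markers moved with the line in the same sense. Taken singly, all 7 were called higher in resistant cells off the drug, beside 30.3% of all tested genes. On the drug 6 were called higher, beside 34.6% of all tested genes, and EPCAM lower (-0.10, adjusted p 0.0035). The part of these markers in the MUC1 difference was not tested.

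The contrast of drug against no drug had opposite signs for MUC1 in the lines, whose exposures differed as well. In parental cells MUC1 was lower on the drug by 0.32 log2 units (SE 0.0788, adjusted p 0.0012). In resistant cells it was higher on than off the drug by 0.24 (SE 0.0553, adjusted p 0.00078). The difference of these responses was 0.56 log2 units (SE 0.0962, adjusted p 3.7e-05). Both drug responses were small beside the difference of the lines, and neither the responses nor their difference passed a test against a change of 0.5 log2 units.

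MUC4 (ENSG00000145113, chromosome 3, 195746765 to 195811973, minus strand) was highest in resistant cells on the drug. Parental libraries held 67.4 and 64.9 CPM untreated against 65.2 and 81.3 under indisulam. Resistant libraries held 53.1 and 65.2 CPM off the drug against 97.2 and 105 on it. The untreated parental libraries overlapped with the treated parental and with the untreated resistant ones, and both resistant indisulam libraries lay above the other 6. In resistant cells MUC4 rose with the drug by 0.78 log2 units, or 1.72-fold (95% interval 0.36 to 1.20, adjusted p 0.015). In parental cells the change was 0.15 (95% interval -0.27 to 0.56, adjusted p 0.47). Off the drug the lines differed in MUC4 by -0.17 (95% interval -0.59 to 0.26, adjusted p 0.42). On it MUC4 was higher in resistant cells by 0.47 (95% interval 0.06 to 0.88, adjusted p 0.049), a call lost without either parental untreated library, the first parental indisulam library or either resistant indisulam library (adjusted p 0.094 to 0.17). The difference of the responses was 0.63 log2 units and was not called (adjusted p 0.075), although it was with the replicate number as a block (0.64, adjusted p 0.037). The rise in resistant cells lost its call without the first resistant untreated library (0.64, adjusted p 0.064) or the second resistant indisulam library (0.72, adjusted p 0.075), and the summed markers of other cell types, led by COL1A1, were also higher in the resistant indisulam libraries, where their part was not tested.

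The spread of MUC4 between libraries was wide for a transcript of its level. The gap between the libraries of a group was 0.32 log2 units in parental indisulam and 0.30 in resistant untreated cells. Of 2427 tested genes within 1.5-fold of its mean level, 2 and 5 had a larger gap in these groups, and the medians were 0.04 and 0.04. In parental untreated cells the MUC4 gap was 0.06 (167 genes larger) and in resistant indisulam cells 0.11 (49 genes larger). MUC1 was not set apart in this way, with gaps of 0.04 to 0.13 where 205 to 1040 of 1566 genes had a larger one. MUC13 had a wide gap in untreated parental cells, 0.87 log2 units, where 33 of 1403 genes of like level had a larger one, and its parental response was 2.38 or 1.47 log2 units with the first or the second of these libraries left out. MUC4 had wide intervals with 3930 to 10120 reads per library, and its fit had 4.2 degrees of freedom against 22.7 for MUC1, MUC13 and MUC20.

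**Figure D3:**
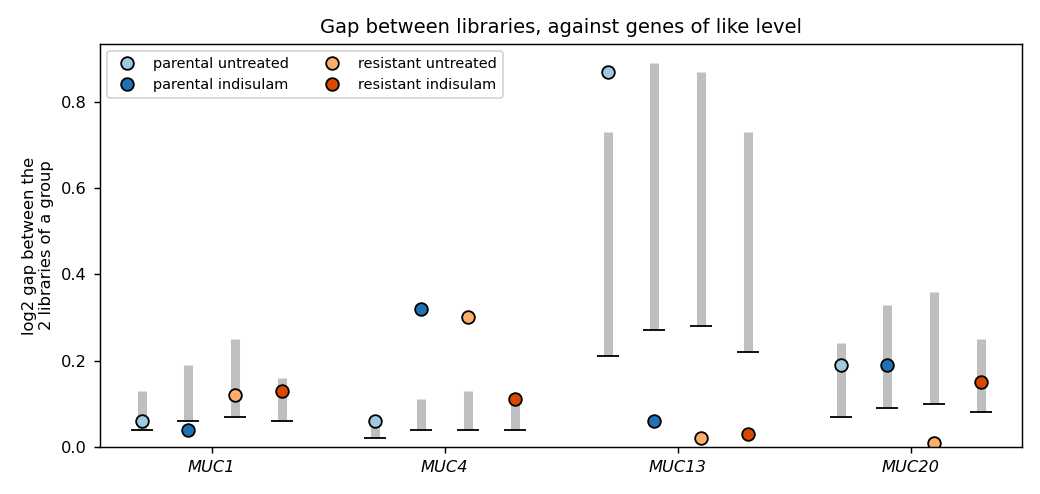
Gap between the 2 libraries of each group, in log2 units, for 4 mucin transcripts (points). The black tick and grey bar give the median and the range up to the 95th percentile of genes within 1.5-fold of the same level, and MUC4 lies above the bar in parental indisulam (0.32) and resistant untreated cells (0.30), just above it in resistant indisulam cells (0.11 against 0.10), and MUC13 above it in parental untreated cells (0.87 against 0.73).

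MUC13 (ENSG00000173702, chromosome 3, 124905442 to 124953819, minus strand), a membrane mucin of the gut and ducts, was scarce and followed the drug in both lines. Parental libraries held 0.265 and 0.14 CPM untreated against 0.72 and 0.749 under indisulam. Resistant libraries held 0.203 and 0.20 CPM off the drug against 0.682 and 0.697 on it. All 4 treated libraries were above all 4 untreated ones. MUC13 rose by 1.85 log2 units, or 3.59-fold, in parental cells (SE 0.247, adjusted p 9.8e-07) and by 1.77 log2 units, or 3.41-fold, in resistant cells (SE 0.279, adjusted p 1.2e-05). The difference of the responses was -0.08 with a 95% interval of -0.91 to 0.76, so differences within that interval were not detectable at this depth. The lines differed by -0.01 off the drug (95% interval -0.73 to 0.70) and by -0.09 on it (95% interval -0.51 to 0.33). These values rest on 13 to 29 reads in untreated and 46 to 67 reads in treated libraries. Of the 5 mucins, MUC13 alone kept its calls for the drug in both lines under a test against 0.5 log2 units.

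MUC20 (ENSG00000176945, chromosome 3, 195720884 to 195741123, plus strand) lies 5642 bases from MUC4 and encodes a membrane mucin that binds the receptor MET. Parental libraries held 4.39 and 3.86 CPM untreated against 5.19 and 4.55 under indisulam. Resistant libraries held 3.25 and 3.23 CPM off the drug against 4.41 and 3.98 on it. The resistant libraries off the drug were the lowest and the treated parental ones the highest, and the other groups overlapped. With indisulam MUC20 rose by 0.24 log2 units in parental (adjusted p 0.026) and 0.36 in resistant cells (adjusted p 0.0045). Its difference between the lines, resistant minus parental, was -0.35 off (adjusted p 0.004) and -0.22 on the drug (adjusted p 0.039). The calls in parental cells and between the lines on the drug were lost by the Wald test of DESeq2 (adjusted p 0.11 and 0.15) and without the first parental indisulam library (adjusted p 0.37 and 0.44), among others. Those in resistant cells and off the drug were lost without the first resistant indisulam library (0.29, adjusted p 0.063) and without the first parental untreated library (-0.25, adjusted p 0.08).

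MUC20 values are also uncertain because MUC20-OT1, a noncoding transcript on the same strand, covers 27.1% of its exon bases, and 32.8% of its stretches of 50 bases occur in transcripts of other genes, among them MUC20-OT1 and the pseudogene MUC20P1. MUC20-OT1 had 1075 to 2366 reads and MUC20 between 15.5 and 25.3% of the reads of the pair. Treated parental cells had less MUC20-OT1, which fell by 0.57 log2 units (adjusted p 1.1e-09), where MUC20 rose. Reads marked ambiguous were not assigned to genes and made up 2.56 to 2.84% of all counted lines per library. How the authors' counting treated reads from the shared bases was not tested.

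**Figure D4:**
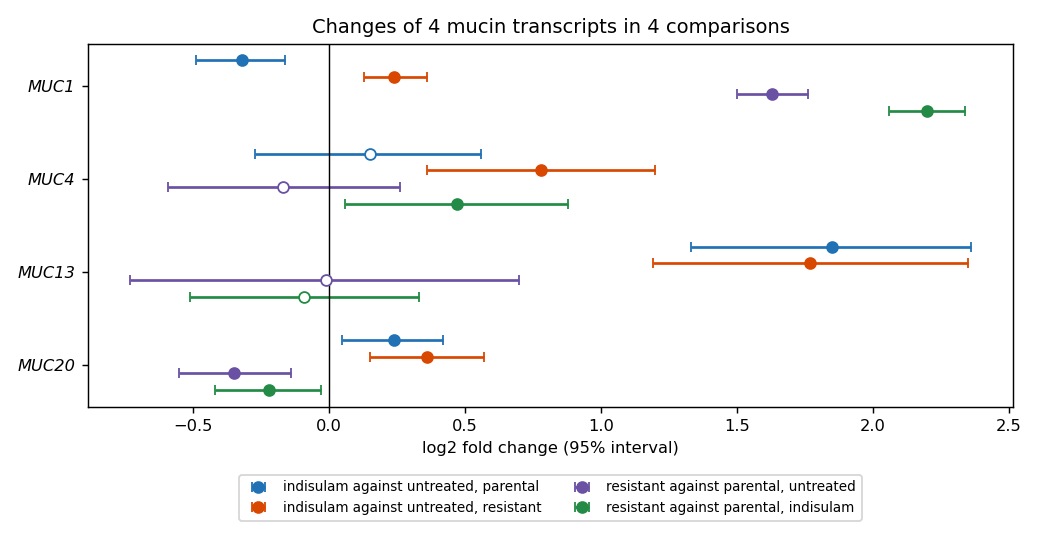
Log2 fold change (horizontal axis) of 4 mucin transcripts in 4 comparisons, with 95% intervals. Filled points passed an adjusted p of 0.05, and MUC16 is left out because parental libraries held 0 reads. MUC1 lies at 1.63 and 2.2 between the lines, and MUC13 at 1.85 and 1.77 with the drug.

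MUC16 (ENSG00000181143, chromosome 19, 8848844 to 9010390, minus strand) encodes the CA125 antigen, a membrane mucin that binds mesothelin. Each of the 4 parental libraries had 0 reads, while resistant libraries had 15 and 9 off the drug against 9 and 12 on it. All resistant libraries were above all parental ones, at 0.203, 0.139, 0.133 and 0.125 CPM. A count of 0 allows up to 3 reads over the parental group. Against that limit the observed MUC16 level in resistant cells was 12.4-fold higher off the drug and 6.52-fold higher on it. These ratios leave out the counting error of the 24 and 21 resistant reads, so they are not lower bounds. No p is given for these differences, since MUC16 passed the filter only through the resistant libraries. With the drug in resistant cells it differed by -0.42 log2 units (95% interval -1.34 to 0.49, adjusted p 0.45). Spread over 44165 exon bases, these reads amount to 0.00386 and 0.00292 CPM per kilobase off and on the drug, far below MUC1 in the same cells. MSLN, the gene of mesothelin, was itself at 0.158 to 0.403 CPM as group means.

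The secreted mucins and MUC17 did not pass the filter. MUC6 (ENSG00000184956, chromosome 11), a gastric gland mucin, had 6 and 4 reads in untreated against 2 and 3 in treated parental libraries, and 3 and 3 off against 2 and 11 on the drug in resistant ones. MUC5AC (ENSG00000215182, chromosome 11), the main mucin of the gastric surface and airway, had at most 2 reads in any library. MUC5B (ENSG00000117983, chromosome 11) had 1 read in each resistant indisulam library and 0 elsewhere, and MUC17 (ENSG00000169876, chromosome 7), an intestinal membrane mucin, had 1 read in each resistant library and 0 in the parental ones. A count of 0 over both parental groups allows up to 0.00814 CPM, counting error only. Differences between groups were not tested for these 4 genes.

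The genes next to the tested mucins moved in different ways. Within 200 kb lay 47 other protein-coding genes, of which 30 were tested. Off the drug 9 were higher and 11 lower in resistant cells, with a median of 0.02 log2 units, beside 30.3% and 29.9% of all tested genes. On the drug 16 were higher and 7 lower, with a median of 0.15 log2 units, beside 34.6% and 34.9% of all tested genes. TRIM46, 853 bases from MUC1, was higher in resistant cells by 1.91 off and 2.39 on the drug from a mean of 0.378 CPM. THBS3, on the other side of MUC1 at 2672 bases, showed 0.10 off the drug (adjusted p 0.39) and was higher by 1.04 on it. HEG1, itself a membrane mucin-like gene 11891 bases from MUC13, was higher by 1.60 off and 1.51 on the drug, where MUC13 differed by -0.01 and -0.09. TNK2, 51391 bases from MUC4, fell by 0.57 in treated parental cells and rose by 0.24 in treated resistant cells.

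The genes whose profile over the 8 libraries was closest to that of each mucin were sought among protein-coding genes with a mean of at least 1 CPM, by Euclidean distance of centred log2 CPM. For MUC1 they were CXCL1 (distance 0.24), N4BP3 (0.243) and VWA1 (0.252), for MUC4 SYNE1 (0.301) and MERTK (0.316), and for MUC13 LEPR (0.892), FERMT3 (1.25) and YY2 (1.28). For MUC16 they were FCHO1 (0.645), CKAP4 (0.647) and CD82 (0.665), and for MUC20 TOR4A (0.199), H2AX (0.199) and WBP2 (0.202). In every parental library MUC16 had 0 reads, so its profile there was set by the 0.01 CPM added before the logarithm. The genes closest to MUC16 depend on that constant. CXCL1, a chemokine gene, stood at 0.679, 0.479, 2.10 and 2.49 CPM in the order of parental cells without and with the drug, then resistant cells without and with it. LEPR, the leptin receptor gene, stood at 3.05, 9.49, 2.82 and 7.19 CPM.

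Of 14 other mucin and mucin-like genes, 6 were tested. In resistant cells on the drug 3 were called higher and 1 lower than off it, and against parental cells on the drug 3 were higher and 1 lower, beside 50.7% and 69.5% of all tested genes called. Both counts of 3 include MUCL3, with 13 and 16 reads in resistant indisulam and 4 to 8 in the other libraries. MUCL3 was kept by the filter through the group where it was high. MUC3A, an intestinal membrane mucin chosen after its values were seen, stood at 0.588 ± 0.0688, 0.558 ± 0.0406, 0.744 ± 0.212 and 1.30 ± 0.0822 CPM (SD, n = 2) in the same order of groups. In treated resistant cells it rose by 0.83 log2 units (adjusted p 0.00058) and changed by -0.07 in parental cells (adjusted p 0.79), a difference of 0.91 (adjusted p 0.01). These adjusted p values of MUC3A do not allow for that choice. OVGP1, an oviductal glycoprotein with a mucin-like tail, was also chosen after its values were seen and rose with the drug in both lines, by 1.80 and 2.09. MCAM, an adhesion molecule once named MUC18, was higher in resistant cells by 2.11 off and 2.49 on the drug. CD164, a sialomucin, was higher by 0.38 off the drug and differed by -0.03 on it (adjusted p 0.42). MUC2, MUC7, MUC15, MUC19 and MUC21 had at most 1 read in any library.

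The enzymes that extend mucin O-glycans differed between the lines in both directions. Of 13 listed, 10 were tested, and 5 were higher and 3 lower in resistant cells off the drug, 6 higher and 4 lower on it, with a median of 0.21 and 0.67 log2 units. Of all tested genes 60.1% and 69.5% were called in these comparisons. The enzymes counted as higher include GCNT4, with 2 to 5 reads in parental and 8 to 18 in resistant libraries, through which the filter kept it. ST3GAL1, which caps the core disaccharide with sialic acid, was higher by 1.81 off and 1.91 on the drug, from 39.2 ± 0.926 to 137 ± 3.09 CPM off it (SD, n = 2). ST6GALNAC2, another sialyltransferase, was higher by 0.91 and 1.37, and B3GNT3, which extends the core chain, by 0.65 and 0.81. GCNT1, which builds the branched core, was lower with -1.51 and -1.25, and ST6GALNAC4 with -0.69 and -0.67. C1GALT1, the synthase of the core disaccharide, was lower with -0.16 and -0.23. Its chaperone C1GALT1C1 fell by 0.39 with the drug in resistant cells and rose by 0.12 in parental cells. The Lewis and secretor fucosyltransferase genes FUT3 and FUT2 were higher by 0.60 and 0.74 in resistant than in parental cells when both were on the drug.

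Genes for mucus folding and its secreted partners were nearly silent, and 2 of 10 were tested. AGR2, a disulfide isomerase needed for secreted mucins and chosen after its values were seen, had 10 and 10 reads in untreated against 4 and 9 in treated parental libraries, and 1 and 2 off against 13 and 29 on the drug in resistant ones. The resistant libraries on the drug, at 0.193 and 0.302 CPM, lay above the other 6, at 0.0135 to 0.116. No test is given, since AGR2 was kept by the filter through its reads in those libraries. TFF1 had 1 to 11 reads per library, TFF2 at most 2, and TFF3 had 0 throughout.

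Genes of mucin granule exocytosis were expressed, with 11 of 12 tested. Of these, 4 were higher and 5 lower in resistant cells off the drug, with a median of -0.05 log2 units, beside 30.3% and 29.9% of all tested genes. UNC13D, a granule priming factor, was higher by 0.22 off and 0.65 on the drug. VAMP8, the granule fusion protein gene, rose with the drug by 0.16 in parental and 0.17 in resistant cells and differed between the lines by 0.01 off the drug (adjusted p 0.82).

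Among 17 transcription factors of mucous epithelium, 10 were tested. SPDEF, a driver of goblet cells, had at most 2 reads, and CDX2 and HNF4A had 0 or 1 in every library. With the drug, 6 rose and 1 fell in parental cells, and 6 rose and 0 fell in resistant cells, beside 58.2% and 50.7% of all tested genes called. The 6 in resistant cells include FOXA3, with 5 to 8 reads in parental and 7 to 31 in resistant libraries, through which the filter kept it. ELF3, an epithelial ETS factor, stood at 7.47 ± 0.168, 7.36 ± 0.781, 4.23 ± 0.187 and 10.5 ± 0.983 CPM (SD, n = 2) in the order of groups above. In treated resistant cells it rose by 1.32 log2 units (adjusted p 2.4e-11) and changed by -0.02 in parental cells (adjusted p 0.81). GATA6, a factor of foregut epithelium, rose with the drug by 0.57 in parental and 0.32 in resistant cells and was higher in resistant cells by 0.87 off and 0.61 on the drug. KLF4 was lower in resistant cells with -0.74 and -0.62, while KLF5 was higher by 0.29 and 0.44.

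All 13 listed partners and sheddases of membrane mucins were tested, and 8 were higher and 1 lower in resistant cells off the drug, beside 30.3% and 29.9% of all tested genes. LGALS3, the galectin that binds mucin sugars, was higher by 0.97 off and 0.58 on the drug, and JUP, the gene of plakoglobin, by 0.40 and 0.82. ERBB2, the partner of MUC4, was higher by 0.26 and 0.27. MET, the partner of MUC20, was lower with -0.21 and -0.37. ADAM17, which sheds the MUC1 ectodomain, was higher by 0.25 off the drug and showed 0.07 on it (adjusted p 0.11).

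**Figure D5:**
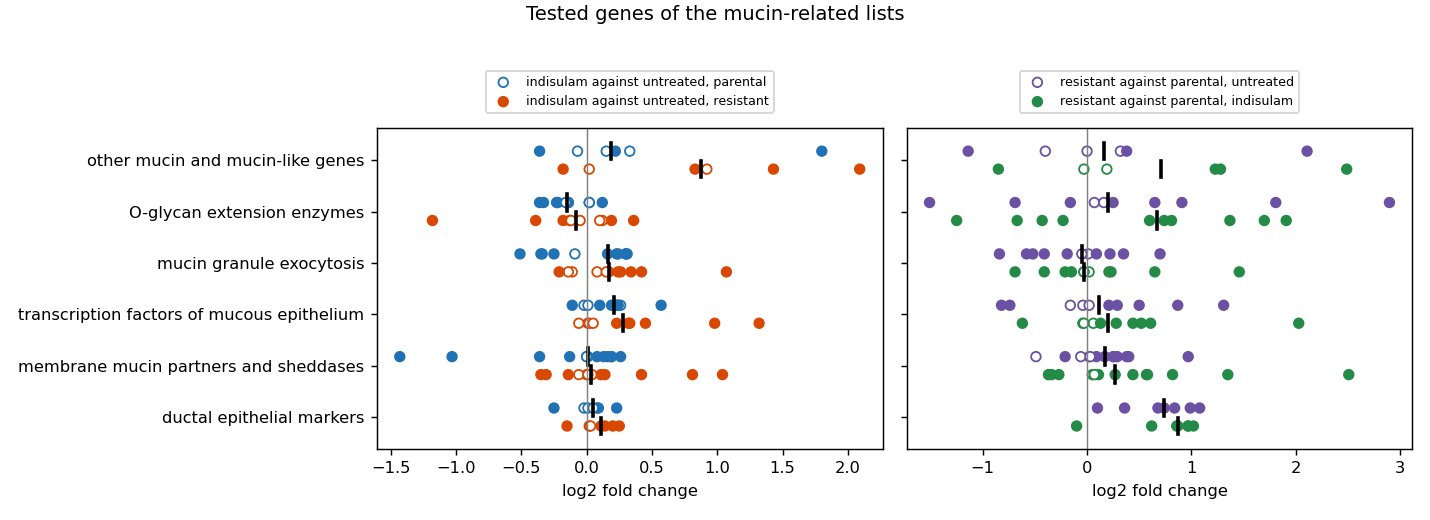
Log2 fold change (horizontal axis) of the tested genes of 6 lists with the drug (left) and between the lines (right). Filled points passed an adjusted p of 0.05, and black ticks are list medians, such as 0.67 for the O-glycan enzymes between the lines on the drug.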

How the data were processed

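The authors deposited raw read counts per Ensembl gene for each library. They prepared stranded poly(A) libraries, trimmed reads with SeqPurge and aligned them to GRCh38. The submitters' processing notes name HISAT2 2.2.1, Picard and HTSeq, and the strand setting and annotation release of the counting are not given in the sources used here. The files list 60675 genes and 9 lines for unassigned reads, among them duplicates (14.1 to 18.4% of all lines), which were left out.

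The analysis of these counts used edgeR 4.0.16 under R 4.3.3 (filterByExpr, TMM, robust quasi-likelihood fit of 4 group means to 8 libraries, 4 residual degrees of freedom before moderation). A gene was called at an adjusted p (Benjamini-Hochberg) below 0.05. Standard errors were the log2 fold change divided by the square root of F, and 95% intervals used the moderated degrees of freedom. Symbols, positions and exon lengths came from GENCODE release 44 (60419 identifiers matched). The depth of 65266253 to 108002436 reads bounds counting error only. An exact permutation test of 2 libraries against 2 cannot reach 0.05 and was not used.

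The members and lists were chosen with earlier results of these data known. Named were all 9 mucins, up to 3 called genes per list and comparison with the largest change and a mean of at least 1 CPM, neighbours within 200 kb, and the 3 closest profiles. GCNT1, C1GALT1, VAMP8, ERBB2, MET and MSLN were added for their roles after their values were seen. Some genes that the rule names are not reported here. Alternatives were DESeq2 1.42.0, its size factors, library totals, other filters, only the groups compared, a replicate block, glmTreat against 0.5 log2 units and each library left out. The code was tested on simulated data. Figures were drawn with matplotlib 3.10.9.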

Additional observations from a re-analysis of the deposited data

Results flagged for a closer look

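The following genes had a response to indisulam that differed between the lines by the test of the difference itself (edgeR, Benjamini-Hochberg over all tested genes), which called 50.1% of all tested genes. Values are log2 differences, resistant minus parental, for the named genes and not for every called gene of a list. Line and drug exposure cannot be told apart in these differences. Of the 13 partners and sheddases 5 were higher and 7 lower, and of the 30 tested neighbours 8 were higher and 6 lower. Among the mucins it was MUC1 (0.56), which fell in both parental and rose in both resistant libraries on the drug.

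Other mucin-like genes were MUC3A (0.91), MCAM (0.38) and CD164 (-0.41), of which MUC3A was chosen after its values were seen. The value of AGR2 (3.60) is a description only and no test is given for it. AGR2 was kept by the filter through the libraries where it was high. The transcript that overlaps MUC20 was MUC20-OT1 (0.50), and neighbours of the mucin genes were THBS3 (0.94), KRTCAP2 (1.22), TNK2 (0.80) and ITGB5 (-0.52). Glycan enzymes were ST6GALNAC2 (0.46), B3GNT3 (0.15), C1GALT1C1 (-0.50), FUT2 (0.58) and FUT3 (0.35). Exocytosis genes were STXBP2 (0.37), UNC13D (0.43), RAB3D (0.49) and SNAP23 (0.12). Transcription factors were EHF (-0.22), ELF3 (1.34) and KLF5 (0.14). Partners and sheddases were ERBB3 (0.47), GRB2 (-0.22), ADAM17 (-0.19), JUP (0.42), EGFR (-0.35), LGALS3 (-0.39) and CTNNB1 (-0.27), beside MSLN (1.84) and MET (-0.16), which the report names for their roles. MSLN and MET were added after their values were seen, and MSLN had only 10 to 39 reads per library. Ductal markers were CDH1 (0.50), EPCAM (-0.20), KRT8 (0.22), SOX9 (-0.21) and KRT18 (0.13), and among markers of other cell types it was COL1A1 (1.41).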

How the results depend on the processing

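The counts of called mucins depended on the filter and on a minimum effect. The test against 0.5 log2 units called 1 mucin for the drug in parental cells (3 reported), 1 in resistant cells (4 reported), 2 between the lines on the drug (4 reported) and 0 for the difference of responses (1 reported). Over all genes it called 1042, 879, 2582, 3509 and 908 in place of 9690, 8446, 10021, 11579 and 8351 in the 5 comparisons. A mean CPM of at least 1, which removes MUC13 and MUC16, left 1 for the drug in parental cells and 2 between the lines on the drug. No filter gave 2 between the lines on the drug. Every setting that kept MUC16 counts it among the mucins called between the lines, although no p is reported for it. The difference of responses was called for 2 mucins with library totals alone, with that stricter filter, with the replicate block and with the Wald test of DESeq2, the second being MUC4 in each case. With one library left out the counts ran from 2 to 3 for the drug in parental cells, from 3 to 4 in resistant cells, from 2 to 3 between the lines off the drug, from 2 to 4 on it, and from 1 to 2 for the difference of responses. The differences of MUC1 between the lines ran from 1.59 to 1.69 off and from 2.14 to 2.27 on the drug, and the drug response of MUC13 from 1.47 to 2.38 in parental and from 1.75 to 1.78 in resistant cells, all called. With library totals alone EGFR with the drug in parental cells was -0.07 and CD164 between the lines on the drug 0.06, both against the reported sign. Same-numbered libraries did not deviate together (r from -0.192 to 0.137 over pairs of groups), so the replicate block pairs only numbers. It changed the call of no mucin other than MUC4, for the difference of responses. Groups held 2 libraries each, and MUC13, MUC16 and the mucins that were not tested had few reads.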
